A study of Mus musculus with 4 samples.

Results

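The transcription factors that set the lineage of a T cell were measured in 1 culture condition: Tbx21, Eomes, Gata3, Rora, Maf, Ahr, Foxp3, Ikzf2, Bcl6 and Prdm1, 10 of the 49671 genes of the deposited tables, taken by gene symbol. CD3+ T cells were taken from the spleens of 4 female F1 mice, whose mothers were C57BL/6 with a heterozygous Xist deletion and whose fathers were M. m. castaneus. Enriched on columns, the cells were stimulated for 48 hours by anti-CD3 on the plate (1 µg/ml) and anti-CD28 in solution (10 µg/ml). IMD-0354 was present at 2.5 µM and blocks IKKβ, the IκB kinase that switches on the transcription factor NF-κB. In these mice the X chromosome from the Castaneus father is taken as the inactive one. The cross alone does not fix this, since the mothers were heterozygous, and the genotype of each F1 animal is not listed here. All 4 animals, labelled biological replicates 1 to 4, belong to 1 group, so the levels below describe stimulated and inhibited cells and say nothing of what the stimulus or the inhibitor changed. The 4 samples are taken here as 4 animals, and p-values measure the spread between them. CD3+ cells include CD4 and CD8 T cells, and values are sums over all cells of a culture.

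Naive T cells take on different tasks after activation, and a small set of transcription factors is known to steer them. Tbx21 encodes T-bet, which turns on the interferon programme of Th1 cells, and the related T-box factor Eomes acts in cytotoxic and memory CD8 cells. Gata3 is required in all T cells and at higher levels directs the Th2 programme. Rora encodes a ROR nuclear receptor of Th17 cells, Maf drives cytokines of Th17, follicular and regulatory cells, and the ligand sensor Ahr supports IL-22 production. Foxp3 defines regulatory T cells, many of which also make the Ikaros family factor Ikzf2 (Helios). Bcl6 is the factor of follicular helper cells, and Prdm1 encodes Blimp-1, which opposes Bcl6 and accompanies effector differentiation.

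Reference promoters of 3 factors are shown because the cells were cultured with an inhibitor of the NF-κB pathway and because each allele is read out from its own copy of this stretch. Tbx21 is the factor that varied most between animals, Gata3 the one with the highest level, and Foxp3 the one on the X. The sequences are the 250 bases before the annotated start in the C57BL/6 reference (RefSeq, GRCm38.p6), in the direction of the gene, and the bases that differ in Castaneus are not marked. They lie at chr11:97115332-97115581 on the minus strand (Tbx21), chr2:9878601-9878850 on the minus strand (Gata3) and chrX:7580233-7580482 on the plus strand (the second of 2 Foxp3 starts). Capitals mark every match, on either strand, to the GC box GGGCGG, the ROR site AGGTCA, the GATA site AGATAA or the dioxin response core GCGTG, to which AHR binds with its partner ARNT.
Tbx21: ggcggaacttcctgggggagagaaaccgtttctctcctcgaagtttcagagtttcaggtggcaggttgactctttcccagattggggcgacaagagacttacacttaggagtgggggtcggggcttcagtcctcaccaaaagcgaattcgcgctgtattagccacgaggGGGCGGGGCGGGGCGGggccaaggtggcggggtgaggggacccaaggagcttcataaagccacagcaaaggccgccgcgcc
Gata3: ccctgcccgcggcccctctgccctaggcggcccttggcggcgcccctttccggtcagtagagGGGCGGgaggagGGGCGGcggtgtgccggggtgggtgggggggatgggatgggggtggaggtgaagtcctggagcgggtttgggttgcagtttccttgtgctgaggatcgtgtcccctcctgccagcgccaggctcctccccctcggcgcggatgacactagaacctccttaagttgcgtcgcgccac
Foxp3: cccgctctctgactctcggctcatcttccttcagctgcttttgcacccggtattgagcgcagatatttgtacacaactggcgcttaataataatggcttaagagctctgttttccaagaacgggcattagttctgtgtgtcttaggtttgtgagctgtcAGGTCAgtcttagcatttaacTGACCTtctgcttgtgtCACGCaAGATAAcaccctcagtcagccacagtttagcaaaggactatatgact
Promoter sequences were found for 7 of the 10 factors, with 9 windows in all, and those of Maf, Ahr and Ikzf2 were not used here. The κB consensus, which NF-κB binds, matched 0 of these 9 windows and 3.90% of 32851 windows of the same length in the whole table. The T-box site GGTGTGA also matched 0 of the 9, against 3.33% of the table. The Tbx21 window held 3 GC boxes between 81 and 66 bases before the start, each sharing 1 base with the next, and that of Gata3 held 2. A GC box was present in 3 of the 9 windows and in 32.7% of the table, and the dioxin response core in 4 of the 9 and in 28.2%. The Foxp3 window shown, chosen because it held the most kinds of match, had 2 ROR sites and 1 GATA site. These were in 1 of the 9 windows each, not in that of the other Foxp3 start, and in 14.0% and 9.99% of the table. No match was searched outside these 250 bases, and a match is a description of letters only.

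All 10 factors were read in all 4 animals. Each had a mean of at least 1 RPKM (reads scaled by exon length and sequencing depth, so a level per length), a mark that 23.1% of all genes of the table and 43.1% of the protein coding ones reach. Gata3 was the highest with 32.9 ± 2.49 RPKM (SD, n = 4), and Rora with 23.4 ± 2.43 and Ikzf2 with 13.6 ± 0.301 came next. Tbx21 had 7.72 ± 3.86, Bcl6 5.77 ± 1.05, Eomes 3.93 ± 0.409, Ahr 3.50 ± 0.518, Maf 3.34 ± 1.55, Foxp3 2.88 ± 0.416 and Prdm1 1.58 ± 0.291 RPKM. The median over the 10 was 4.85 RPKM, below the 6.72 RPKM of the 11453 genes with at least 1 RPKM. Gata3 stood at percentile 90.9 of those genes and Prdm1 at percentile 10.2.

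Only 3 steps in this order held without overlap between the animals. The ranges of Gata3 and Rora, of Rora and Ikzf2, and of Foxp3 and Prdm1 did not overlap. Ikzf2 was above Tbx21, and Bcl6 above Eomes, in 4 of 4 animals, though their ranges overlapped. Tbx21 was above Bcl6 in 2 of 4 animals, Maf above Foxp3 in 1 of 4, and Eomes above Ahr, and Ahr above Maf, in 3 of 4. The middle of the order is therefore not resolved by 4 animals. In a bulk culture a low level can come from few cells with much RNA or from many cells with little, which cannot be told apart.

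**Figure D1:**
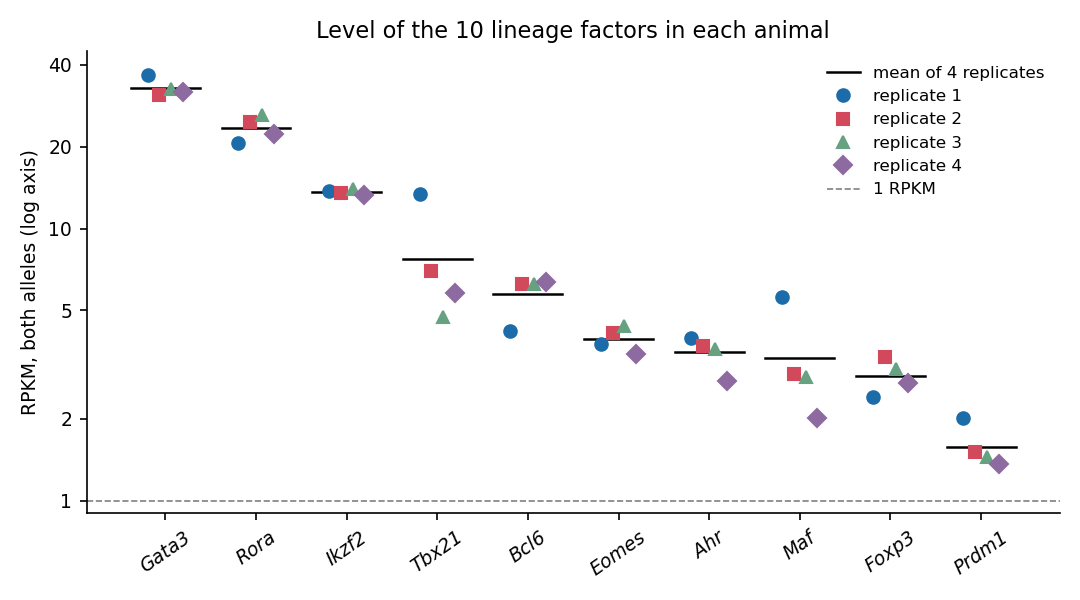
Level of each factor in RPKM on a log axis, with 1 point per animal and a black line at the mean of the 4 replicates; the dashed line is 1 RPKM. Gata3, Rora and Ikzf2 lie close together between animals, while replicate 1 stands above the others for Tbx21 and Maf and below them for Bcl6.

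The Th1 and cytotoxic factors were present at middle levels. Tbx21 (ENSMUSG00000001444, chr11:97098071-97115331 in mm10) measured 13.3, 6.98, 4.75 and 5.80 RPKM in replicates 1 to 4. The first animal had 2.28 times the mean of the other 3. Eomes (ENSMUSG00000032446, chr9:118478212-118486132) measured 3.75, 4.15, 4.38 and 3.46 RPKM, with no animal apart. The ratio of Tbx21 to Eomes ran from 1.09 in replicate 3 to 3.56 in replicate 1.

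Of 15 genes listed for the Th1 programme, 12 (80%) had at least 1 RPKM, beside 43.1% of protein coding genes. The chemokine genes Ccl3 and Ccl4 led with 65.6 ± 8.76 and 59.6 ± 6.94 RPKM (SD, n = 4), followed by Nkg7, a granule membrane protein gene, with 24.8 ± 8.38 and Stat4, which relays IL-12 signals, with 16.9 ± 0.795. Ifng, the signature cytokine, was low at 2.23, 0.782, 2.04 and 1.83 RPKM in replicates 1 to 4. Cxcr3, the chemokine receptor gene that T-bet is known to control, had 3.40 ± 0.806 RPKM. Of 18 cytotoxic effector genes, 10 (55.6%) reached 1 RPKM, a share not far above that of protein coding genes. The listed genes divided: granzyme B (Gzmb) measured 44.9, 33.1, 30.6 and 28.6 RPKM, perforin (Prf1) 2.02 ± 0.473, and Gzmk and S1pr5 were under 0.1. The regulators Id2 and Runx3, which act in CD8 effector cells, had 46.5 ± 5.61 and 20.96 ± 2.07 RPKM. Granzyme B was the only one of these 3 killing or interferon genes (Gzmb, Prf1, Ifng) above 10 RPKM.

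Gata3 was the leading factor in every animal. The gene (ENSMUSG00000015619, chr2:9857078-9890034) measured 36.5, 31.0, 32.6 and 31.7 RPKM, and its ratio to Tbx21 ran from 2.74 in replicate 1 to 6.86 in replicate 3. Of 15 Th2 genes found, 9 (60%) had at least 1 RPKM, beside 43.1% of protein coding genes. The chemokine receptor gene Ccr8 had 80.3 ± 2.57 RPKM, Stat6, which relays IL-4 signals, 77.0 ± 5.56, the receptor chain gene Il4ra 23.7 ± 0.347 and Gfi1 20.6 ± 0.996. Whether these genes were read from Th2 cells or from other T cells was not tested. The cytokines did not share one level. Il13 measured 19.4, 6.84, 5.93 and 8.19 RPKM, whereas Il4 was at 0.0570, 0, 0 and 0.0550, so that it was listed at 0 in 2 animals. Ptgdr2, which encodes the Th2 receptor CRTH2, had 0.0573 ± 0.0129 RPKM.

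Of the factors studied here that act in Th17 cells, Rora was the highest. It (ENSMUSG00000032238, chr9:68653786-69388246) measured 20.6, 24.5, 26.1 and 22.3 RPKM in replicates 1 to 4, with no animal apart. Maf (ENSMUSG00000055435, chr8:115682942-115707794) measured 5.59, 2.91, 2.84 and 2.02 RPKM. Replicate 1 was the highest and replicate 4 the lowest.

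All 13 Th17 genes found in the table had at least 1 RPKM, beside 43.1% of protein coding genes. Their median was 6.33 RPKM, below the 6.72 of all genes with at least 1 RPKM. Il17a itself measured 88.7, 27.4, 21.5 and 13.1 RPKM, so that replicate 1 had 4.29 times the mean of the other 3. Irf4 and Batf, which open chromatin together at Th17 genes but also act in other activated T cells, had 167.3 ± 11.6 and 26.2 ± 3.32 RPKM, and Stat3 had 28.8 ± 0.415. In 9 of the 13 genes replicate 1 was the highest, while it was the highest in 19.7% of the 11453 genes with at least 1 RPKM.

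Ahr was read at a level like that of Eomes and Maf. The gene (ENSMUSG00000019256, chr12:35497974-35535038) measured 3.97, 3.69, 3.60 and 2.76 RPKM. Of 10 AHR target genes, 3 had at least 1 RPKM, a share of 30% beside 23.1% of all genes and 43.1% of protein coding genes, namely Tiparp with 5.59 ± 0.354, Il22 with 7.27, 5.43, 4.65 and 3.24, and the quinone reductase gene Nqo1 with 2.75 ± 0.794. Cyp1a1, the classical target, was at 0.0125, 0, 0.00645 and 0.0138 RPKM, and Cyp1a2 was listed at 0 in all 4 animals. Ahrr, the repressor gene that AHR induces, had 0.295 ± 0.110 RPKM, and Ahr exceeded it by 8.34 to 15.4 times. Asb2 had 2.13 RPKM in replicate 1 and 0.321 to 0.734 in the others. Tiparp and Nqo1 are also under other control, and Il22 stood in the Th17 list too.

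The regulatory factors were at unequal levels. Foxp3 (ENSMUSG00000039521, chrX:7573644-7595245) measured 2.41, 3.37, 3.04 and 2.705 RPKM. Ikzf2 (ENSMUSG00000025997, chr1:69531214-69687245) measured 13.8, 13.5, 14.0 and 13.3 RPKM, which was 4.00 to 5.71 times Foxp3. Helios is also made by activated T cells outside the regulatory lineage, and the file cannot assign reads to cells. Of 22 regulatory T cell genes found, 17 (77.3%) had at least 1 RPKM, beside 43.1% of protein coding genes. The costimulatory receptor genes Tnfrsf4 (OX40) and Tnfrsf18 (GITR) had 89.7 ± 5.47 and 83.6 ± 5.52 RPKM, Il2ra, the IL-2 receptor alpha chain, 46.3 ± 4.35, and Ikzf1 (Ikaros) 44.5 ± 2.11. These 4 are also expressed by activated conventional T cells. Ctla4, which holds activation in check, had 3.71 ± 0.996, close to Foxp3, and Gpr83 had 0.0998 ± 0.0278 RPKM.

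Bcl6 exceeded Prdm1 in each animal. Bcl6 (ENSMUSG00000022508, chr16:23965052-23988852) measured 4.20, 6.26, 6.26 and 6.35 RPKM, with replicate 1 below 3 nearly equal values. Prdm1 (ENSMUSG00000038151, chr10:44437177-44528501) measured 2.01, 1.51, 1.44 and 1.36 RPKM, with replicate 1 above the others. The ratio of Bcl6 to Prdm1 was 2.09 in replicate 1 and 4.16 to 4.65 in the other 3. Of 14 genes of the follicular helper programme, 11 (78.6%) had at least 1 RPKM, beside 43.1% of protein coding genes. The cytokine receptor gene Il6st led with 24.0 ± 2.11 RPKM, followed by Btla with 18.2 ± 1.96, Cd200 with 15.3 ± 1.00 and Cd40lg, the B cell helper ligand, with 12.5 ± 1.16. It was likewise not tested whether these genes were read from follicular helper cells. Cxcr5, which guides follicular cells, had 2.95 ± 0.599, and Il21, their cytokine, was at 0.0698, 0.171, 0.171 and 0.130 RPKM.

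By the median of the list, naive and memory genes exceeded all of these programmes. All 16 of them had at least 1 RPKM, beside 43.1% of protein coding genes, with a median of 22.8 and a lowest level of 10.0 RPKM. Single genes of other lists, such as Irf4 with 167.3 and Tnfrsf4 with 89.7 RPKM, were above most of them. From which cells the naive and memory genes were read was not tested. Ccr7, the lymph node homing receptor gene, had 719.6 ± 41.0 RPKM, Tcf7 245.3 ± 34.6, Satb1 77.6 ± 2.78 and Ets1 55.0 ± 2.84. Tcf7 measured 207.0 RPKM in replicate 1 and 236.3 to 290.5 in the others. Among 38 other lineage factors, 32 (84.2%) had at least 1 RPKM, and the median of the 38 was 16.1. Besides Irf4 and Tcf7 the highest were Stat5a with 84.9 ± 3.16 and Stat6. Rorb and Gata1, relatives of Rora and Gata3 that serve other tissues, were under 0.1 RPKM.

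**Figure D2:**
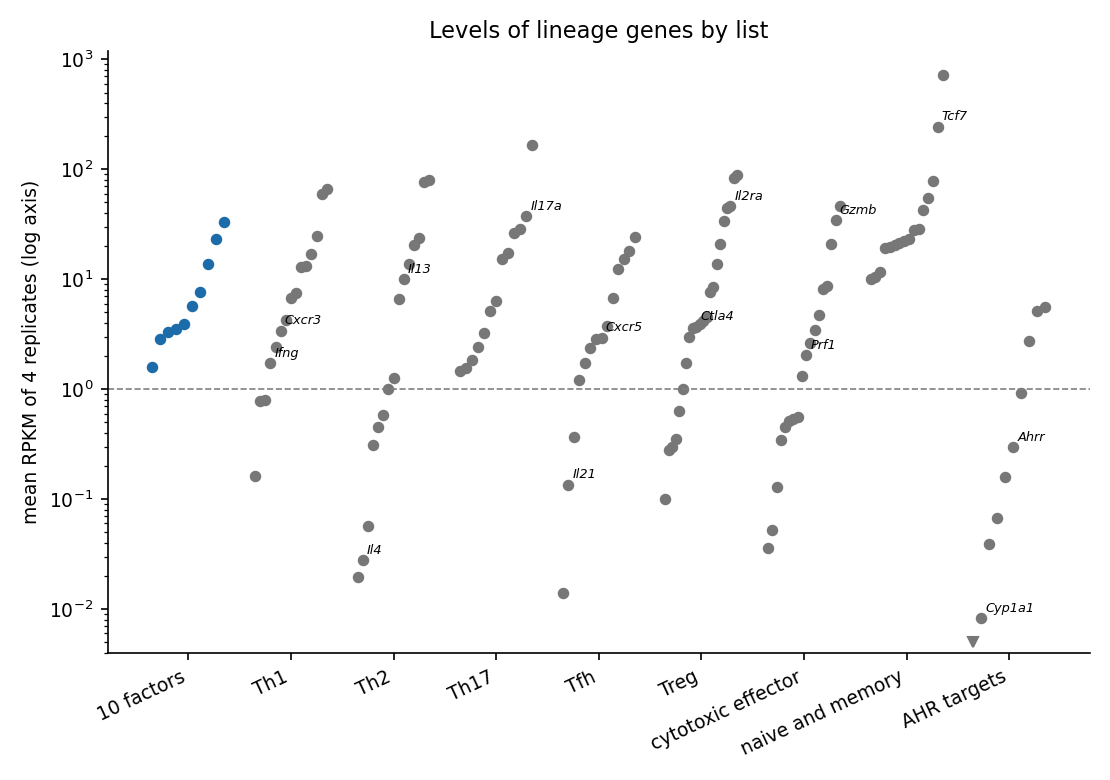
Mean level of each gene of the 10 factors and of 8 lineage lists in RPKM on a log axis, 1 point per gene, ordered by level within a list, with the dashed line at 1 RPKM and the triangle for a gene listed at 0. Naive and memory genes have the highest median, all Th17 genes lie above the line, and Il4, Il21 and Cyp1a1 lie below it.

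Replicate 1 carried more of several effector factors. Among the 10 factors it was the highest for Tbx21, Gata3, Maf, Ahr and Prdm1 and the lowest for Rora, Bcl6 and Foxp3. Over the 11453 genes with at least 1 RPKM it was the highest in 19.7% and the lowest in 38.4%. The coefficient of variation between animals was 50.0% for Tbx21 and 46.5% for Maf, at percentiles 98.3 and 94.1 of genes of similar level (0.5 to 2 times the mean of the gene). For Ikzf2 it was 2.20%, at percentile 1.79 of 4299 such genes, and for Gata3 it was 7.55%. Beside these values, 7 of the 10 cytotoxic genes with at least 1 RPKM were the highest in replicate 1.

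Markers of other cells moved with the animals as well. Of 12 B cell markers, 5 (41.7%) had at least 1 RPKM, near the 43.1% of protein coding genes. All 5 were the highest in replicate 1, and the 12 summed to 51.4, 42.3, 35.8 and 36.5 RPKM. Ighm made up most of this with 31.2 ± 3.37 and Cd79a had 2.37 ± 1.06. Of 11 myeloid markers, 8 (72.7%) had at least 1 RPKM, beside 43.1% of protein coding genes. All 8 were the highest in replicate 2, which was the highest in 42.1% of all genes with at least 1 RPKM. The 11 summed to 128.2, 211.3, 81.7 and 59.8 RPKM, with Lyz2 at 44.7, 74.4, 27.2 and 18.8. In the same list Csf1r, Adgre1 and C1qa were under 1 RPKM, with means of 0.689, 0.437 and 0.127. Of the 6 plasma cell markers, 3 (50%) had at least 1 RPKM, near the 43.1% of protein coding genes. These were Irf4, which stood in the Th17 list too, Xbp1 and, with 1.10 ± 0.492, Mzb1. Jchain had 0.495 ± 0.172 and Sdc1 0.215 ± 0.110 RPKM, while Tnfrsf17 was listed at 0 in 3 animals. B cells express Bcl6 and plasma cells Prdm1, and macrophages express Maf. The part of these cells in the levels was not tested.

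NK and innate lymphoid cells also use T-bet, Eomes, Gata3 and Rora, and their markers were read unevenly. The NK receptor genes Ncr1 and Klrb1c had means of 0.0895 and 0.0633 RPKM. Of 10 NK markers 3 (30%) reached 1 RPKM, beside 43.1% of protein coding genes. These 3 were Il2rb, which T cells share, and Tyrobp and Fcer1g, which myeloid cells share. Of 7 markers of ILC2 and mast cells, only Kit, with 5.03 ± 0.595 RPKM, reached 1, and Il1rl1 had 0.451 ± 0.0781. Klrd1, a receptor gene of NK and CD8 cells from the cytotoxic list, had 3.42 ± 1.08 RPKM. The part of these cells in the levels of the factors was not tested. Of 8 dendritic cell markers, 4 (50%) reached 1 RPKM, led by Ccl22 with 51.3 ± 5.03, while Xcr1, Clec9a and Siglech were under 0.1. All 14 T cell markers were read, with Cd4 at 31.1 ± 5.45, Cd8a at 15.4 ± 0.418 and Cd8b1 at 49.7 ± 2.25 RPKM.

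The F1 cross allowed the same factors to be read by allele. The authors counted reads assigned to the C57BL/6 and to the Castaneus copy, 30539711 to 34992012 such reads per replicate, and the Castaneus share of autosomal reads was 49.5% to 49.7%. Departures of the Castaneus to C57BL/6 ratio from 1 were tested gene by gene for 10268 autosomal genes, fitted together with 304 X genes (edgeR's quasi-likelihood test with the animal as a block, Benjamini-Hochberg over the autosomal genes, FDR of 5%). Of the 9 autosomal factors, 5 were called with more Castaneus reads, where 12.1% of the tested genes were, and 0 with more C57BL/6 reads, where 15.1% were. At an unadjusted p under 0.05, 1 factor, Maf, had more C57BL/6 reads, and DESeq2's Wald test called 1, Maf again. The sources used here do not say how reads were assigned to an allele, and mapping differences at single genes were not tested.

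**Figure D3:**
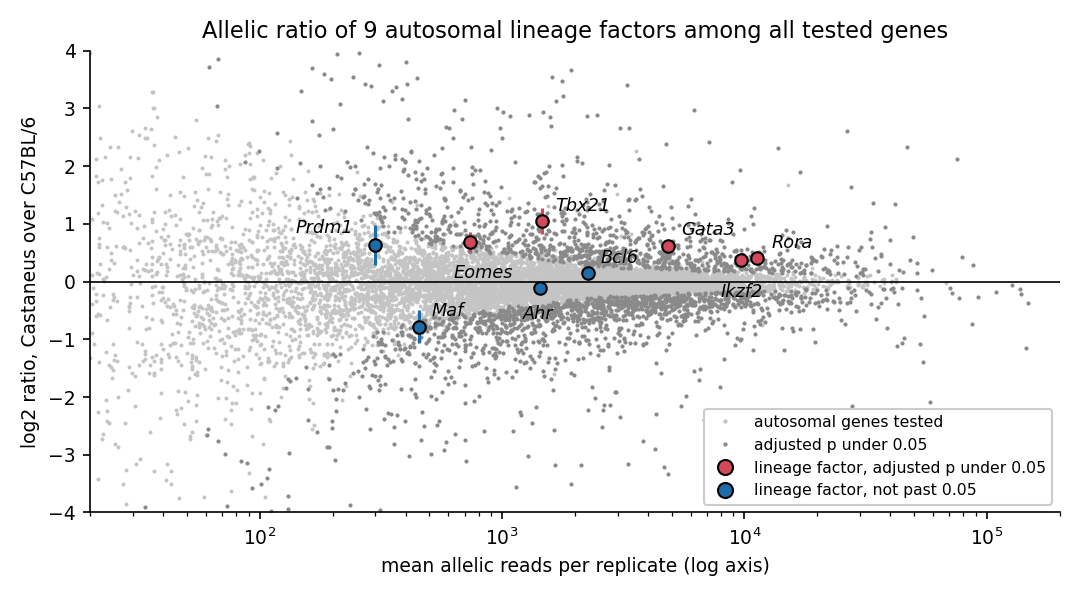
Log2 ratio of Castaneus to C57BL/6 reads (0 is equal) against the mean allelic reads per replicate on a log axis, for 10268 autosomal genes, with the 9 autosomal factors as large points and their standard error as bars; 239 genes lie outside the axes. Tbx21, Eomes, Gata3, Rora and Ikzf2 are above 0 and called, and Maf is the only factor well below 0.

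Tbx21 had the largest ratio of the 9 autosomal factors. Castaneus gave 56.0%, 65.7%, 79.4% and 65.8% of its 2541, 1182, 989 and 1144 allelic reads in replicates 1 to 4, all above 50%. The log2 ratio was 1.05 with a standard error of 0.22 (edgeR, adjusted p = 0.0063), a fold of 2.07. Without the animal as a block the call was lost at a log2 ratio of 0.84 (edgeR, adjusted p = 0.179; over 13 alternatives it ran from 8.96e-06 to this value). The share spread more between animals, with an SD of 9.61 percentage points, than the median SD of 4.30 for genes of similar depth.

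The animal with the highest Tbx21 level differed more in one allele than in the other. When the RPKM is divided by the allele shares, the C57BL/6 part was 5.87, 2.40, 0.979 and 1.98 RPKM and the Castaneus part 7.47, 4.58, 3.77 and 3.82. The highest animal exceeded the lowest by 5.99 times in the C57BL/6 part and by 1.98 times in the Castaneus part. This is a description of 4 animals, and the difference between alleles in their spread was not tested.

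**Figure D4:**
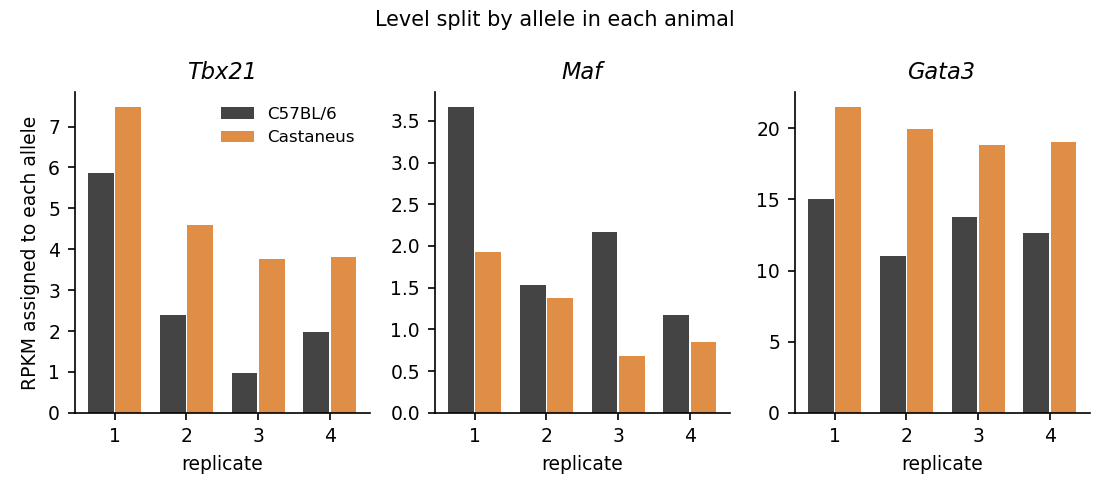
RPKM of Tbx21, Maf and Gata3 divided by allele share in each animal, with C57BL/6 in dark and Castaneus in orange bars. Tbx21 and Gata3 have the higher Castaneus bar in all 4 animals and Maf the higher C57BL/6 bar, and both Tbx21 bars are tallest in replicate 1.

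Gata3, Rora and Ikzf2 had smaller imbalances than Tbx21, with less spread between animals and at more reads. The Castaneus share of Gata3 was 58.8%, 64.4%, 57.8% and 60.1% (log2 ratio 0.62, standard error 0.08, edgeR adjusted p = 0.00039). Rora, with 10510 to 13108 allelic reads per animal, had 56.6%, 56.2%, 56.7% and 57.03%, an SD of 0.331 percentage points (log2 ratio 0.41, standard error 0.05, edgeR adjusted p = 0.00018). Ikzf2 had 59.3%, 53.9%, 55.7% and 55.3% (log2 ratio 0.37, standard error 0.06, edgeR adjusted p = 0.0017). In all 3 genes Castaneus was higher in 4 of 4 animals.

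Eomes was called at fewer reads. Its Castaneus share was 55.9%, 60.4%, 62.2% and 66.2% of 691, 647, 974 and 633 reads (log2 ratio 0.68, standard error 0.18, edgeR adjusted p = 0.018). The call was lost without replicate 3 (edgeR, adjusted p = 0.0739) and without replicate 4 (edgeR, adjusted p = 0.109), and over 13 alternatives the adjusted p began at 0.00033.

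The other 4 autosomal factors were not called. Maf leaned to C57BL/6 in 4 of 4 animals, with Castaneus shares of 34.5%, 47.4%, 23.8% and 41.9% of 830, 304, 428 and 248 reads, and did not pass (log2 ratio -0.78, standard error 0.29, edgeR adjusted p = 0.0732). Prdm1 had shares of 52.7%, 47.5%, 72.6% and 67.6% of 391, 324, 234 and 247 reads and did not pass (log2 ratio 0.63, standard error 0.35, edgeR adjusted p = 0.221). Bcl6 had 52.1%, 58.6%, 48.0% and 49.9%, on both sides of 50% (log2 ratio 0.15, 95% interval -0.08 to 0.38). Ahr had 48.6%, 47.6%, 46.8% and 48.1% and the second smallest spread of the 9, with an SD of 0.755 percentage points (log2 ratio -0.10, 95% interval -0.33 to 0.12). These intervals for Bcl6 and Ahr take the estimate as normally distributed, which with 4 animals makes them too narrow. As given, they leave out a change of 1.5 times.

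Foxp3, on the X, was read from the C57BL/6 copy. It had 0 Castaneus reads of 711 in replicate 1 and 0 of 706 in replicate 2, which allow shares of up to 0.422% and 0.425% by counting error (3 counts), and 4 of 980 and 2 of 732 in replicates 3 and 4. Over the 4 animals this was 6 of 3129 reads, and the mean share was 0.170% ± 0.204 (SD, n = 4). The ratio was below the 0.1 used for the inactive X, by 5.69 on the log2 scale (edgeR, adjusted p = 1.02e-06 over 304 X genes), as were 79.3% of X genes tested. Several reads can be copies of 1 molecule, so limits and exact Clopper-Pearson intervals cover counting error only. The exons of Foxp3 overlap Flicr on the same strand over 18.6% of their length and Ccdc22 on the other strand over 12.9%, and the sources used here do not say whether counting used strand. Cxcr3 and Cd40lg, which are also on the X, had Castaneus shares of 0% and 0.0547% ± 0.109.

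**Figure D5:**
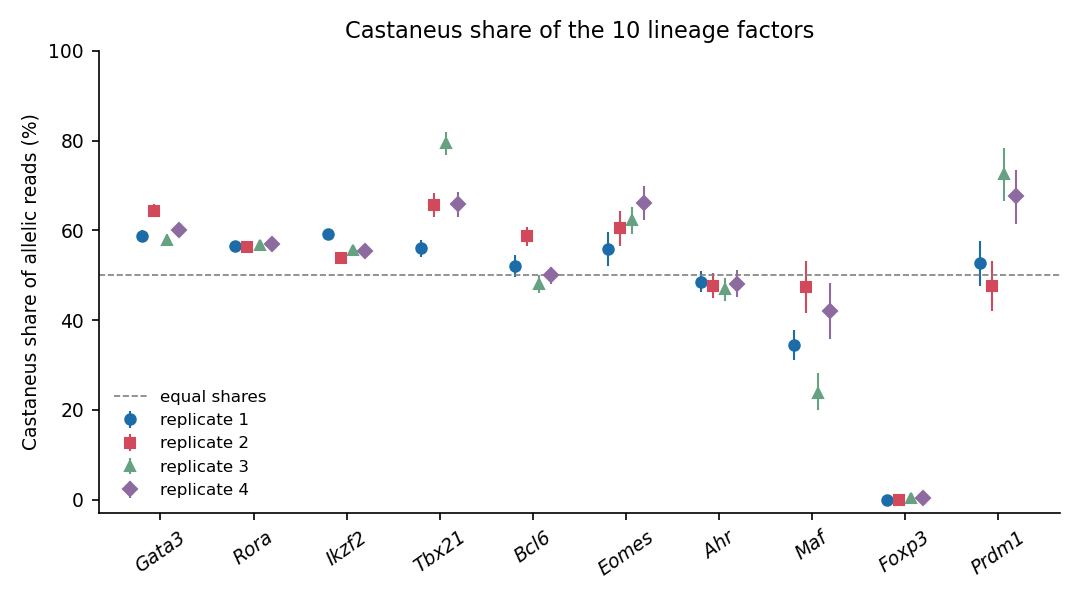
Castaneus share of the allelic reads of each factor in each animal, in percent, with exact 95% intervals that cover counting error only; the dashed line is 50%. Gata3, Rora, Ikzf2, Tbx21 and Eomes lie above the line in all 4 animals, Maf and Ahr below it, and Foxp3 lies at 0% to 0.408%.

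The nearest tested genes to the called factors lay on both sides of equal expression. Of the 10 tested protein coding genes nearest to these 5 factors on either side, 1 was called with more Castaneus and 2 with more C57BL/6 reads, near the 12.1% and 15.1% of all autosomal genes tested. Golga4, 20.1 kb from Eomes, had 52.0% ± 0.985 from Castaneus and was called. Celf2, 2348 kb from Gata3, had 40.9% ± 2.88 and Vps13c, 658 kb from Rora, 43.4% ± 4.15 (edgeR, adjusted p = 0.0017 and 0.0191). Osbpl7 and Tbkbp1, 29.2 and 20.8 kb from Tbx21, had 45.8% ± 2.54 and 37.7% ± 23.7. Taf3, 24.5 kb from Gata3, had 45.5% ± 5.52, Ice2, 9.66 kb from Rora, 50.9% ± 3.78 and Cmc1, 328 kb from Eomes, 41.7% ± 10.1. Lancl1 and Atic, at 2492 and 1869.9 kb from Ikzf2, had 48.4% ± 6.11 and 50.8% ± 1.78. The difference between a factor and its neighbours was not tested.

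Signature genes of the programmes were called in both directions. Il17a had 39.8% ± 3.08 of its reads from Castaneus (edgeR, adjusted p = 0.0018) and Il13 25.2% ± 0.605 (edgeR, adjusted p = 2.46e-05), both more from C57BL/6. Gzmb had 56.8% ± 2.53 (edgeR, adjusted p = 0.0038), Ctla4 72.0% ± 6.77 (edgeR, adjusted p = 0.0018) and Icos 80.6% ± 2.13 (edgeR, adjusted p = 1.03e-06) from Castaneus. Nkg7 had 30.8% ± 3.29 and Tnfrsf4 34.4% ± 2.38. Of 11 autosomal Th1 genes tested, 1 had more Castaneus and 5 more C57BL/6 reads, of 13 Th17 genes 3 and 4, and of 17 regulatory genes 4 and 6, beside 12.1% and 15.1% of all autosomal genes tested. Of the other lineage lists, that of naive and memory genes had 6 of 16 with more Castaneus and 2 with more C57BL/6 reads.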

How the data were processed

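Libraries of 4 samples were made from total RNA with a stranded kit after ribosomal RNA removal, per the labels' protocols. Deposited by the authors are whole-number read counts per gene for each allele, not normalized, and RPKM values of both alleles together, per the file headers. STAR 2.7.1a, featureCounts (no version) and mm10 are named in the submitters' processing notes. The sources used here do not say which total the RPKM were scaled by, how alleles were assigned or whether strand or duplicates were considered.

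RPKM values were used as deposited, with no filter, and are described by mean, SD and range, without a test. The RPKM steps gave whole reads for most low genes with GENCODE exon lengths. For Foxp3 and Prdm1 they did not, with offsets of up to 0.298 and 0.499 reads. The exon lengths behind the levels of Foxp3 and Prdm1 are therefore not known here. The recovered reads were not used in a result. Gene positions came from GENCODE M21, promoters from RefSeq. Allele counts entered a quasi-likelihood fit in edgeR 4.0.16 under R 4.3.3, by glmQLFit and glmQLFTest, with replicate as a block and allele as a term, since both alleles come from the same animal. Genes needed a mean of 20 allelic reads and of 1 RPKM, which left 10268 autosomal and 304 X genes, fitted together. The library size was the autosomal total of the allele. The ratio was tested two-sided against 1, and for X genes against 0.1. DESeq2 1.42.0, other normalizations, filters and nulls, a fit without the block and leaving out each replicate were alternatives. The fit was also run on simulated data, with the outcome not given here. Python 3.11.15, pandas 2.3.3, scipy 1.17.1 and matplotlib 3.10.9 were used for the other steps.

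Reads were clumped: genes with 20 to 39 allelic reads were read from 1 allele only more often than independent reads allow, at about 11.4, 22.6, 13.0 and 7.19 reads per molecule in replicates 1 to 4 if both alleles are equally active. Exact binomial intervals on reads are therefore too narrow.

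The factors and gene lists were chosen with earlier results of these data known. Genes named are the 10 factors, per list the 4 with the highest RPKM, up to 3 under 0.1 RPKM and up to 2 called with the most reads, 15 signature genes, and the nearest tested neighbours of called factors. Cd4, Cd8a, Klrd1, Csf1r, Adgre1, C1qa and Sdc1 were added after their values were seen, as were the X gene shares beside Foxp3. Listed symbols that were not found once in the table (Dec2, Il26, Folr4 and Itgam) were left out. Some genes that this rule names are not reported here.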

Additional observations from a re-analysis of the deposited data

Results flagged for a closer look

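In 6 of the genes with at least 1 RPKM that the text names, 1 animal lay far from the other 3, by the gap to its nearest neighbour divided by the whole range of the 4 (Dixon's ratio, set against its 95% critical value for 4 samples). Chance gives this in about 1 of 20 genes, and 6.64% of the 11453 genes with at least 1 RPKM show it. The share of named genes that the 6 make up was not set against this, so they are listed as description only.

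Bcl6 had a ratio of 0.960, with 4.20 RPKM in replicate 1 and 6.26, 6.26 and 6.35 in the others. Replicate 1 was the high one in 4 others. Ccl22 had a ratio of 0.921 (58.8 RPKM against 48.3 to 49.1), Icos 0.896 (8.67 against 5.89 to 6.17), Nkg7 0.838 (37.2 against 19.3 to 22.2) and Il13 0.833 (19.4 against 5.93 to 8.19). Ccl3 had a ratio of 0.892 with replicate 2 as the high one (78.7 RPKM against 60.0 to 62.0). Tbx21 and Maf, with ratios of 0.740 and 0.750, did not pass.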

How the results depend on the processing

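Over 13 alternatives the calls of Gata3, Rora and Ikzf2 held, and Foxp3 stayed below the inactive X ratio in 12 of 12. Tbx21 lost its call without the replicate block (log2 ratio 0.84, edgeR adjusted p = 0.179), where the block is the pairing of both alleles in 1 animal. Leaving out 1 replicate gave Eomes log2 ratios from 0.58 to 0.79, below the threshold without replicate 3 (0.66, edgeR adjusted p = 0.0739) or 4 (0.58, edgeR adjusted p = 0.109). Maf was called with more C57BL/6 reads by DESeq2's Wald test (log2 ratio -0.78, adjusted p = 0.0186) and with reads divided by the reads per molecule (-0.89, edgeR adjusted p = 0.00459). Leaving out 1 replicate gave it -1.01 to -0.50, past the threshold without replicate 2 (edgeR adjusted p = 0.0154). The count of factors with more C57BL/6 reads was then 1 under both settings and 0 to 1 with 1 replicate left out, and over all autosomal genes it ran from 987 without replicate 4 to 1604 without replicate 2. DESeq2 called 1676 autosomal genes with more Castaneus and 2199 with more C57BL/6 reads, and the fit without the replicate block 945 and 1124, against 1239 and 1548. With TMM factors there were more Castaneus than C57BL/6 calls, 1422 against 1294, and with DESeq2 size factors 1395 against 1314. No other result about the factors changed its call. The log2 ratio of Prdm1 ran from 0.37 to 0.88 over 13 alternatives and that of Bcl6 from 0.02 to 0.23, both without a call. B cell markers with at least 1 RPKM numbered 3 to 7 under other thresholds or with 1 replicate left out. The depth limits Prdm1 and Maf most, with 234 to 391 and 248 to 830 allelic reads per animal.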

Other observations

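The other lineage factors were read from both alleles. Of 32 tested among 38, 8 had more Castaneus and 7 more C57BL/6 reads (edgeR, FDR of 5%), where 12.1% and 15.1% of all autosomal genes tested did. Stat5a, which relays IL-2 signals, had 53.0% ± 0.569 of its reads from Castaneus and Stat4 55.1% ± 0.625, while Gfi1 had 43.9% ± 1.74 and Irf4 47.4% ± 0.870 (SD, n = 4). Zfpm1, with 58.1% ± 1.79 (log2 ratio 0.50, edgeR adjusted p = 0.0011), and Maff, with 41.0% ± 4.27 (log2 ratio -0.50, edgeR adjusted p = 0.0335), were larger, and were chosen after their values were seen. Among genes of the other lists, Kit, the stem cell factor receptor gene, had 80.0% ± 1.82 from Castaneus (log2 ratio 2.02, standard error 0.10, edgeR adjusted p = 4.16e-07), at 5.50, 4.37, 5.57 and 4.69 RPKM in replicates 1 to 4. Il22 leaned to C57BL/6 with 29.9% ± 9.72 and Nqo1 to Castaneus with 70.5% ± 9.32 (edgeR, adjusted p = 0.0101 and 0.0157).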
